A study of Homo sapiens with 4 samples.

Results

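The RNAs followed here were those of 10 members of the BCL2 family, chosen by symbol from the 56304 genes of the count table: the anti-apoptotic genes BCL2, BCL2L1, MCL1 and BCL2A1, the effectors BAX and BAK1, and the BH3-only genes BCL2L11, BBC3, PMAIP1 and BIK. Each symbol matched a single row. All 10 passed the filter on low counts, which left 15529 genes for the test. They were measured by bulk RNAseq in MV3 cells, an established human line from a metastatic melanoma, stably expressing the nuclear marker H2B-GFP in every sample. Spheroids of 50000 cells were cultured without irradiation or drug in collagen I and dissected on day 2 into the core, taken with a 1 mm punch, and the invasion zone, taken with a 3 mm punch. Each zone has 2 libraries, numbered replicate 1 and replicate 2. The vertical punch can leave invading cells above and below the core in the core sample, a limit that the study's own discussion gives. The sources do not say whether a library came from a single spheroid or a pool, nor that the replicates were separate cultures. The p-values therefore measure the spread between these libraries, partly shared across genes, which may be technical.

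The BCL2 family controls the permeability of the outer mitochondrial membrane and through it the intrinsic pathway of apoptosis. Anti-apoptotic members hold the effectors BAX and BAK1 in check, BH3-only proteins bind the anti-apoptotic members or the effectors and so tip cells towards death, and pores formed by BAX and BAK1 release cytochrome c, which starts the caspase cascade. In melanoma the family is known for the reliance of many lines on MCL1 and BCL-xL, and for BIM, the product of BCL2L11, as a target of MAPK and FoxO signaling.

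Total counts ranged from 11789243 to 37591782 per library, and both replicate 2 libraries were the shallower ones. Mitochondrially encoded genes took between 1.06% and 1.72% of the counts. Among the 10 melanoma markers looked up, CSPG4 (36.8 to 51.3 CPM, counts scaled to the library total with TMM factors) and AXL (628 to 1222 CPM) were present, SOX10 and TYR had 0 counts in all 4 libraries, and 6 of the 10 stayed under 1 CPM everywhere, so the pigment-cell markers of the labelled melanoma type were largely absent. Epithelial and immune markers summed to at most 0.307 CPM. Of the fibroblast markers LUM and DCN were at 0, whereas PDGFRA was detected and moved with the zone, with 95.1 and 58.2 CPM in the core and 38.1 and 13.6 CPM in the invasion zone. The endothelial marker PECAM1 had 18.1 and 7.42 CPM in the core and 5.22 and 0.925 CPM in the invasion zone, with KDR at 0. The part of these moving markers in the results was not tested. In bulk RNA, a change in the share of cells that express a gene and a change in RNA per cell cannot be told apart.

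The question of the comparison was how signaling programs differ between cells that invaded the collagen and cells that stayed in the core. The family did not move as a block. In both replicates the 4 anti-apoptotic genes and the 2 effectors had higher values in the invasion zone libraries, whereas the BH3-only genes BCL2L11 and BBC3 were lower by more than 2-fold and PMAIP1 was lower by little. The edgeR quasi-likelihood test without a replicate term, with Benjamini-Hochberg adjustment over 15529 genes, called 0 of the 10 members at an adjusted p under 0.05 and a 2-fold change, against a background of 0% of all genes higher and 0% lower. The smallest edgeR adjusted p of this fit was 0.128, a value shared by genes with different unadjusted p, BCL2L11 among them. With no adjustment of p and the same 2-fold change, 1 member passed higher (2.92% of all genes) and 2 passed lower (5.85%). DESeq2 with adjusted p also called 1 higher (2.27% of all genes) and 2 lower (3.44%), and limma voom called 0. With the replicate number as a block, edgeR called 1 member higher, BCL2 (background 3.41%), and 2 members lower, BCL2L11 and BBC3 (background 7.06%). The blocked fit leaves little information on the spread of a single gene, so its p-values lean on a variance shared across genes. Without the fold minimum the block passed 5 members higher, namely BCL2, BCL2L1, MCL1, BAX and BAK1, and the same 2 lower, against 19.4% of all genes in each direction. Limma voom with the block, chosen after seeing the data, called 1 higher (3.7% of all genes) and 2 lower (7.01%), and edgeR over every gene with at least 1 count, without the block, called 1 higher (1.3%) and 2 lower (2.57%).

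BCL2L11 was called lower with any 1 library left out, in fits without the block in which the lone library of a zone is assumed to vary like the other zone. With core replicate 1 left out, BCL2L11 alone was called lower, against 0.838% of all genes lower and 0.0872% higher. Without core replicate 2, BCL2L11 and BBC3 were called lower (3.82% of all genes lower, 3.63% higher), and the same 2 members were called lower without invasion zone replicate 1 (7.6% lower, 3.85% higher). Without invasion zone replicate 2, BCL2L11 alone was called lower (1.98% lower, 1.21% higher). BCL2 was not called in these 4 fits, with log2 fold changes from 1.21 to 1.28.

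**Figure D1:**
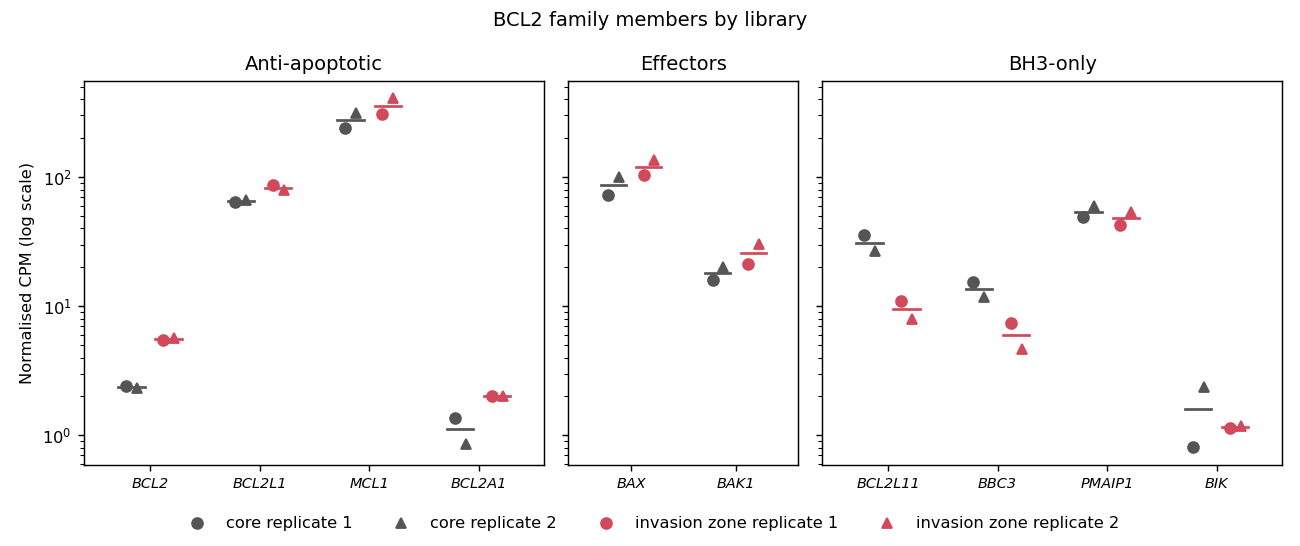
Normalized CPM on a log axis for each of the 10 members in each library, in panels for the anti-apoptotic genes, the effectors and the BH3-only genes. Circles are replicate 1, triangles are replicate 2, and the lines are the means of each zone (n = 2). Both invasion zone libraries lie above both core libraries for BCL2, BCL2L1, BCL2A1, BAX and BAK1 and below them for BCL2L11 and BBC3, and the zones overlap for MCL1, PMAIP1 and BIK.

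BCL2L11 (ENSG00000153094, chromosome 2 of GRCh38, 111119378 to 111168444, plus strand) encodes BIM, a BH3-only protein that binds all anti-apoptotic members. It had 35.3 CPM in core replicate 1 and 26.8 CPM in core replicate 2, against 11 CPM and 7.99 CPM in invasion zone replicates 1 and 2. Both invasion zone libraries lay well below both core libraries, and within each zone replicate 1 was the higher library. The mean of the core libraries was 31.0 ± 6.04 CPM (SD, n = 2) and that of the invasion zone libraries 9.50 ± 2.14 CPM, 3.27-fold lower. The log2 fold change was -1.70 (standard error 0.25, edgeR adjusted p = 0.128) without a replicate term and -1.71 (standard error 0.13, edgeR adjusted p = 7.52e-05) with the block. Of all genes tested, 2.90% had a lower log2 fold change. BCL2L11 is among the genes that the study picked from these same libraries, so its direction here is not independent evidence.

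The promoter of BCL2L11 is shown because it is the member with the largest difference and belongs to the FoxO signaling genes of the study. The run covers 250 bases before to 50 bases after the RefSeq start, chr2:111120664-111120963 of GRCh38.p14 on the plus strand, and capitals mark GTAAACA, the core bound by forkhead factors such as FoxO, and ACGTG or GCGTG, the core of the hypoxia response element, on either strand. The promoter of BBC3, the other member lower by over 2-fold, is given beside it, chr19:47232618-47232917 on the minus strand.
BCL2L11: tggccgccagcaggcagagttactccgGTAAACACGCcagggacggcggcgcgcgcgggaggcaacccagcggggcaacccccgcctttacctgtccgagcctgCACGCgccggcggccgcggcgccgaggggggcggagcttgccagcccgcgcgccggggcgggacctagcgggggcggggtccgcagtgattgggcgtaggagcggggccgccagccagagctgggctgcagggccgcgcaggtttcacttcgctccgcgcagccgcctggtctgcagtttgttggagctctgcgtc
BBC3: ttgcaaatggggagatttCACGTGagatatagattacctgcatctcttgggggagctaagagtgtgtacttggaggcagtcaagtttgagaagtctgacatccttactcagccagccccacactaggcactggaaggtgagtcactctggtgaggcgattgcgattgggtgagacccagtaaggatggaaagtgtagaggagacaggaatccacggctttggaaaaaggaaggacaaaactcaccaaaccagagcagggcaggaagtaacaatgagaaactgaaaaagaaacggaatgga
RefSeq promoters were found for 8 of the 10 members, with 9 entries in all, since BCL2L1 has a pair of starts. BCL2L11 was the only one of these 8 with GTAAACA, whose first base lies at -223 from the start and which overlaps a GCGTG match on the other strand in its last bases. GTAAACA occurs in 3.42% of the 35097 promoters of this length. ACGTG was found in the promoters of BBC3 and BAX (21.4% of all promoters), and GCGTG in those of BCL2L11, PMAIP1 and BCL2L1 (36.5%). In BBC3 the 2 ACGTG matches form the palindrome CACGTG, which matches on both strands. BAX has 9 matches, which include the same palindrome. These matches are a description of letters in these windows.

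BBC3 (ENSG00000105327, chromosome 19, 47220822 to 47232766, minus strand) encodes PUMA, a BH3-only protein induced by DNA damage and other stresses. It had 15.3 and 11.8 CPM in core replicates 1 and 2 and 7.38 and 4.62 CPM in invasion zone replicates 1 and 2. The zones did not overlap, and replicate 1 was again the higher library of each zone. The mean of the core libraries was 13.5 ± 2.46 CPM (SD, n = 2) and that of the invasion zone libraries 6.0 ± 1.95 CPM, with a log2 fold change of -1.15 (standard error 0.31, edgeR adjusted p = 0.138) and of -1.17 with the block (standard error 0.18, edgeR adjusted p = 0.00125). Without invasion zone replicate 2 the log2 fold change was -0.88, and BBC3 was then not called.

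PMAIP1 (ENSG00000141682, chromosome 18, 59899996 to 59904305, plus strand) encodes NOXA, which binds MCL1. It had 48.8 and 59.3 CPM in the core and 42.2 and 53.8 CPM in the invasion zone, so the zones overlapped and replicate 2 was the higher library in each. Its log2 fold change was -0.17 (standard error 0.19, edgeR adjusted p = 0.62), and -0.18 with the block (standard error 0.095, edgeR adjusted p = 0.18). Within the replicates the log2 difference was -0.21 (95% counting interval -0.31 to -0.11) and -0.14 (-0.29 to 0.0078), the smallest differences of the 10 members.

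BIK (ENSG00000100290, chromosome 22, 43110750 to 43129712, plus strand), a BH3-only gene whose protein sits at the endoplasmic reticulum, was near the detection limit with 29 and 36 counts in core replicates 1 and 2 and 43 and 14 in the corresponding invasion zones. Its CPM was 0.809 (exact Poisson 95% interval 0.542 to 1.16) and 2.38 (1.67 to 3.30) in the core and 1.15 (0.829 to 1.54) and 1.18 (0.643 to 1.97) in the invasion zone. Core replicate 2 stood above the other libraries, and the direction of the zone difference was opposite in the 2 replicates, with a log2 difference of 0.50 in replicate 1 and -1.02 in replicate 2. Its log2 fold change of -0.41 (standard error 0.63, edgeR adjusted p = 0.733) turned to 0.52 without core replicate 2.

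**Figure D2:**
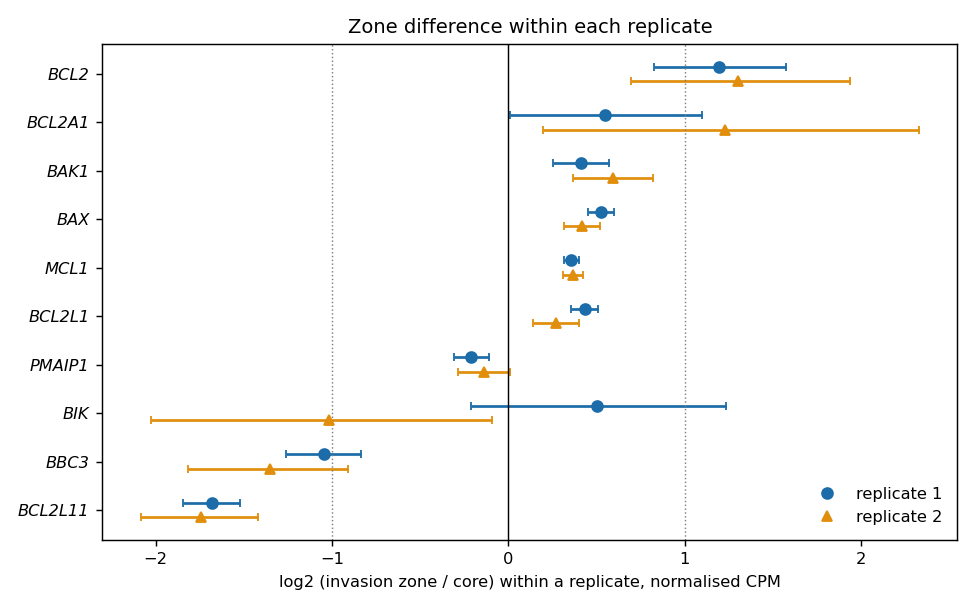
The log2 ratio of invasion zone over core CPM within replicate 1 (circles) and within replicate 2 (triangles) for each member, ordered by the log2 fold change of the fit. Bars are exact 95% intervals that cover counting error only, and dotted lines mark a 2-fold change. The replicates lie on the same side of 0 for every member but BIK. The points of BCL2L11 (-1.68 and -1.74), BBC3 (-1.05 and -1.35) and BCL2 (1.19 and 1.30) lie past the 2-fold lines in both. The bars of BBC3 and BCL2 cross those lines in both replicates, and those of BCL2L11 do not.

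Of the anti-apoptotic members, BCL2 (ENSG00000171791, chromosome 18, 63123346 to 63320128, minus strand), the founding gene of the family, differed most. It was expressed at a low level, with 86 and 35 counts in core replicates 1 and 2 and 206 and 68 in invasion zone replicates 1 and 2, which gave 2.40 and 2.32 CPM against 5.49 and 5.72 CPM. The exact Poisson 95% intervals did not overlap between the zones, the highest core bound being 3.22 CPM and the lowest invasion zone bound 4.44 CPM. The libraries of a zone lay close together, and the log2 fold change was 1.24 (standard error 0.28, edgeR adjusted p = 0.131) without and 1.24 (standard error 0.26, edgeR adjusted p = 0.00554) with the block. Of all genes tested, 97.6% had a lower log2 fold change.

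MCL1 (ENSG00000143384, chromosome 1, 150560895 to 150579738, minus strand) encodes a short-lived survival protein that binds BAK1, BIM and NOXA. It had 242 and 315 CPM in the core and 310 and 406 CPM in the invasion zone, so that core replicate 2 lay above invasion zone replicate 1. Replicate 2 exceeded replicate 1 by 0.38 on the log2 scale in the core and 0.39 in the invasion zone, about as much as the invasion zone exceeded the core, 0.36 in replicate 1 and 0.37 in replicate 2. Its log2 fold change was accordingly 0.36 with a standard error of 0.21 and an edgeR adjusted p of 0.35 without the block, and 0.36 with a standard error of 0.071 and an edgeR adjusted p of 0.00411 with it. Without the block, leaving out single libraries moved it between 0.15 (without invasion zone replicate 2) and 0.57 (without core replicate 2).

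BCL2L1 (ENSG00000171552, chromosome 20, 31664452 to 31723989, minus strand) encodes BCL-xL, the other abundant survival protein. It had 63.8 and 66.2 CPM in the core and 86.1 and 79.9 CPM in the invasion zone, zones that did not overlap, and a log2 fold change of 0.35 (standard error 0.14, edgeR adjusted p = 0.196) that passed the adjusted threshold with the block (edgeR adjusted p = 0.015) but was under 2-fold. BCL2A1 (ENSG00000140379, chromosome 15, 79960892 to 79971196, minus strand) encodes BFL-1, an NF-kappaB and MITF target in other settings. It had 49 and 13 counts in core replicates 1 and 2 and 75 and 24 in the corresponding invasion zones, or 1.37, 0.861, 2.00 and 2.02 CPM. Its log2 fold change was 0.82 (standard error 0.43, edgeR adjusted p = 0.307) and passed no threshold with the block either (edgeR adjusted p = 0.133), and it was 0.56 without core replicate 2 and 1.23 without core replicate 1.

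The effectors, whose proteins form the pores in the mitochondrial outer membrane, were both higher in the invasion zone. BAX (ENSG00000087088, chromosome 19, 48954815 to 48961798, plus strand) had 72.6 and 101 CPM in the core and 104 and 135 CPM in the invasion zone. Core replicate 2 and invasion zone replicate 1 almost met, and replicate 2 was the higher library of each zone. BAK1 (ENSG00000030110, chromosome 6, 33572547 to 33580293, minus strand) had 15.9 and 19.9 CPM in the core and 21.2 and 30.1 CPM in the invasion zone. The log2 fold changes were 0.46 (standard error 0.22, edgeR adjusted p = 0.27) for BAX and 0.51 (standard error 0.24, edgeR adjusted p = 0.262) for BAK1. With the block they were 0.47 (edgeR adjusted p = 0.00238) and 0.50 (edgeR adjusted p = 0.0138), past the adjusted threshold and under 2-fold. With single libraries left out, without the block, BAX ranged from 0.25 (without core replicate 1) to 0.73 (without core replicate 2) and BAK1 from 0.24 (without invasion zone replicate 2) to 0.75 (without invasion zone replicate 1).

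Over the 10 members the median log2 fold change was 0.36, against -0.0094 over all genes tested. It was 0.59 for the 4 anti-apoptotic members, 0.49 for the 2 effectors and -0.78 for the 4 BH3-only members. The BH3-only median is the midpoint of BBC3 (-1.15) and BIK (-0.41), and the low BIK had opposite directions in the 2 replicates. The zones did not overlap for 7 members, 5 with the invasion zone above and 2 with it below, where 28.1% and 30.3% of all genes did so. The members also differed in how the replicates sat within a zone. MCL1, BAX, BAK1 and PMAIP1 were higher in replicate 2 in both zones, by 0.28 to 0.51 on the log2 scale, and BCL2L11 and BBC3 were lower in replicate 2 in both zones, by 0.37 to 0.68.

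Levels were compared between genes per length, with CPM divided by the exonic length of each gene in GENCODE release 44. This assumes even coverage of all exons, which was not tested. In the core MCL1 had the highest level per kb, 44.8 ± 8.33 CPM per kb (SD, n = 2), followed by BAX (33.5 ± 7.76), PMAIP1 (24.7 ± 3.39), BCL2L1 (15.5 ± 0.404), BAK1 (8.10 ± 1.29), BCL2L11 (4.6 ± 0.895), BBC3 (4.25 ± 0.771), BIK (1.68 ± 1.17), BCL2A1 (1.12 ± 0.36) and BCL2 (0.187 ± 0.0046). Over the core libraries the values of MCL1 and BAX, of BCL2L11 and BBC3, and of BIK and BCL2A1 overlapped. Within a library MCL1 stood above BAX and BCL2L11 above BBC3 in both core replicates, whereas BIK was below BCL2A1 in replicate 1 and above it in replicate 2. In the invasion zone MCL1 (57.5 ± 10.9) again led and stood above BAX (46.2 ± 8.27) within both replicates, PMAIP1 (22.0 ± 3.76) was below BCL2L1 (19.8 ± 1.03) in replicate 1 and above it in replicate 2, and BCL2L11 stood at 1.41 ± 0.317 CPM per kb, between BBC3 (1.88 ± 0.613) and BIK (1.22 ± 0.023). BBC3 was above BCL2L11 in both invasion zone libraries, and BCL2L11 was above BIK in replicate 1 and below it in replicate 2. BCL2 remained the lowest member per length, at 0.444 ± 0.013 CPM per kb. With the length of the canonical transcript in place of all exons BAX stood above MCL1 in both zones, because the canonical BAX transcript has 795 bases and its exons together 2587. BBC3 then stood above BCL2L11 in both core libraries as well.

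Per length, MCL1 made up 68.5% to 75.2% of the summed RNA of the 4 anti-apoptotic members in the 4 libraries and BCL2L1 21.9% to 28.2%, with ranges that overlapped between the zones. BCL2 made up 0.342% and 0.272% in the core and 0.598% and 0.522% in the invasion zone. Among the BH3-only members PMAIP1 took most of the sum, with 67.2% and 72.7% in the core and 78.9% and 86.4% in the invasion zone. BCL2L11 and BBC3 together made up 30.2% of the BH3-only sum in the core and 16.2% in the invasion zone of replicate 1, and 20.6% and 9.25% in replicate 2. The ratio of the BH3-only sum to the anti-apoptotic sum was 0.596 and 0.553 for core replicates 1 and 2 and 0.336 and 0.328 for the corresponding invasion zones. With canonical lengths these ratios were 0.473 and 0.424 for the core and 0.257 and 0.245 for the invasion zone. The BH3-only sum holds only the 4 members and leaves out other BH3-only genes. Of these, BID had 44.6 and 53.6 CPM in the core and 52.2 and 59.1 CPM in the invasion zone. BAD had 52.4 and 65.1 CPM against 48.2 and 60.4 CPM, and BMF was lower in the invasion zone. The effector sum over the anti-apoptotic sum was 0.633 and 0.712 for the core and 0.686 and 0.756 for the invasion zone. It was higher in the invasion zone of both replicates, also with canonical lengths. These ratios are of RNA and were not tested, since they combine the differences already given.

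**Figure D3:**
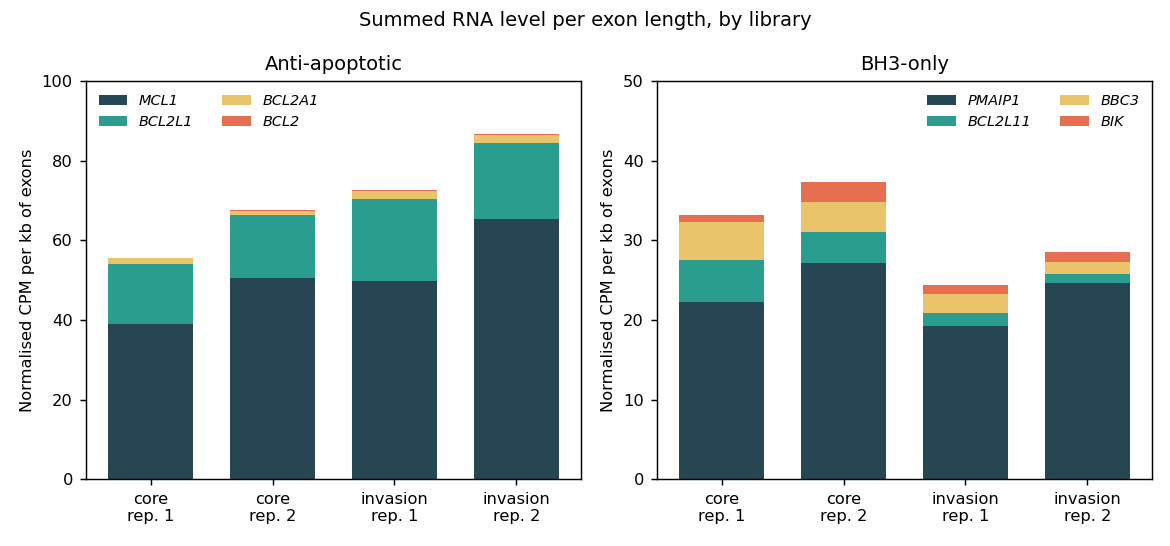
Stacked bars of normalized CPM per kb of exons for the 4 anti-apoptotic members (left) and the 4 BH3-only members (right) in each library, on linear axes that start at 0 and differ in scale. In both replicates the anti-apoptotic sum of the invasion zone exceeds that of the core (72.8 against 55.7 and 86.8 against 67.5), and the BH3-only sum lies below it (24.5 against 33.2 and 28.5 against 37.3).

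The exons of some members overlap other genes, and the strand setting of the counting is not given in the sources used here. BCL2L11 shares 727 of its 6742 exonic bases with MIR4435-2HG on the opposite strand, a long noncoding RNA that had 22.0 and 22.1 CPM in the core and 33.9 and 36.6 CPM in the invasion zone, opposite in direction to BCL2L11. BCL2L1 shares 1735 of 4197 bases with its antisense gene ABALON, which had 1.45 to 3.45 CPM. MCL1 shares 328 of 6222 bases with ADAMTSL4-AS1 on its own strand, which had at most 1.26 CPM. BBC3 shares 76 and 80 of 3185 bases with microRNA genes on either strand, and BAK1 shares 91 of 2212 with GGNBP1, which had at most 1 count per library. BCL2, BCL2A1, BAX, PMAIP1 and BIK share none.

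The genes whose 4 values most resembled those of BCL2L11 were looked up among 9545 tested genes with a mean of at least 10 CPM, by the Euclidean distance of log2 CPM centred on each gene's mean. The nearest was BCL3 (distance 0.077), an atypical inhibitor of NF-kappaB with a family name but no BCL2 fold, at 188 and 142 CPM in the core and 56.5 and 41.7 CPM in the invasion zone. OSER1-AS1 (0.111), the collagen lysyl hydroxylase PLOD1 (0.128), the inflammasome sensor NLRP1 (0.183) and TMEM45A (0.199) followed. With 4 libraries such likeness is a description of these samples.

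Other genes of the pathway were taken from fixed lists, 74 genes in all, of which 65 passed the filter on low counts. The edgeR test without a replicate term called 0 of them in either direction, against 4 higher and 6 lower without adjustment of p (2.92% and 5.85% of all genes), 4 and 5 in DESeq2 (2.27% and 3.44%) and 0 in limma voom. With the block it called 4 higher and 10 lower, where 3.41% of all genes were called higher and 7.06% lower. Of the 10 lower, DESeq2 did not call BMF (adjusted p = 0.256), FOXO4 (0.17) or TP53INP1, and it gave no adjusted p for CASP10 and TNFSF10. The median log2 fold change of the 65 list genes was -0.089. Among the other BCL2 family genes 0 of 9 tested were called higher and 3 lower with the block (3.41% and 7.06% of all genes), with a median of 0.012. The 3 were BMF, BNIP3 and BNIP3L. BMF, a BH3-only gene linked to the cytoskeleton and to loss of anchorage, had 36.8 and 15.8 CPM in the core and 6.42 and 0.252 CPM in the invasion zone, the last from 3 counts. Its log2 fold change was -2.83 (standard error 1.03, edgeR adjusted p = 0.184) and -3.04 with the block (edgeR adjusted p = 0.000481), and invasion zone replicate 2 weighed on it, since it was -2.04 without that library and -6.69 without invasion zone replicate 1.

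BNIP3 and BNIP3L, mitophagy receptors with a BH3-like stretch and known targets of hypoxia-inducible factors, varied less between replicates. BNIP3 had 241 and 271 CPM in the core and 73.1 and 82.7 CPM in the invasion zone, with a log2 fold change of -1.72 (standard error 0.15, edgeR adjusted p = 0.128) and an edgeR adjusted p of 2.67e-05 with the block. BNIP3L had 367 and 354 CPM in the core and 163 and 134 CPM in the invasion zone, with a log2 fold change of -1.28 (standard error 0.16, edgeR adjusted p = 0.128, and 5.17e-05 with the block). The remaining 6 tested genes, BCL2L2, BOK, BID, BAD, BCL2L12 and BCL2L13, had log2 fold changes from -0.11 to 0.77.

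Downstream of the mitochondria, 1 of 15 genes of the caspase and apoptosome list was called higher and 1 lower with the block (3.41% and 7.06% of all genes), and the list median was 0.050. CYCS, the gene of cytochrome c, had 37.3 and 51.5 CPM in the core and 80.0 and 98.2 CPM in the invasion zone, with a log2 fold change of 1.01 (standard error 0.21, edgeR adjusted p = 0.13, and 0.00013 with the block). CASP10, an initiator caspase of death receptors, was at 1.37 CPM or less, with 49 and 7 counts in the core and 14 and 0 in the invasion zone (log2 fold change -1.97, edgeR adjusted p = 0.314, and 0.0285 with the block), or -7.33 without invasion zone replicate 1 and -1.35 without invasion zone replicate 2. The value of -7.33 likewise rests on an invasion zone library with 0 counts, where no ratio was measured. CASP9, the initiator caspase of the apoptosome, had a log2 fold change of -0.72 and an edgeR adjusted p of 0.133, and of 0.00293 with the block.

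Of the 6 inhibitor of apoptosis genes tested, 1 was called higher and 1 lower with the block (3.41% and 7.06% of all genes), around a median of 0.27. BIRC5, or survivin, which also serves in mitosis, had 64.7 and 158 CPM in the core and 261 and 349 CPM in the invasion zone, and a log2 fold change of 1.46 (standard error 0.43, edgeR adjusted p = 0.152, and 0.000223 with the block), which was 0.96 without core replicate 1 and 2.24 without core replicate 2. The study names it among its own genes from these libraries. BIRC7, or livin, an inhibitor known from melanoma, had 205 and 88 counts in the core and 11 and 0 in the invasion zone (log2 fold change -4.81, standard error 0.73, edgeR adjusted p = 0.128, and 0.000226 with the block), or -9.92 without invasion zone replicate 1 and -4.28 without invasion zone replicate 2. For the value of -9.92 the invasion zone library left had 0 counts, so no ratio was measured. BIRC2, which restrains death receptor signaling, had 104 and 121 CPM in the core and 162 and 222 CPM in the invasion zone, and its log2 fold change of 0.77 passed the adjusted threshold with the block (edgeR adjusted p = 0.000278) and not without it (0.137).

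In the death receptor list 0 of 9 tested genes were called higher and 2 lower with the block (3.41% and 7.06% of all genes), and the median was -0.36. FAS, the receptor of FAS ligand, had 12.3 and 7.88 CPM in the core and 4.50 and 2.86 CPM in the invasion zone (log2 fold change -1.43, standard error 0.36, edgeR adjusted p = 0.135, and 0.000832 with the block). TNFSF10, the ligand TRAIL, was low, at 2.40 and 0.994 CPM in the core and 0.746 and 0.504 CPM in the invasion zone (log2 fold change -1.42, edgeR adjusted p = 0.225, and 0.0247 with the block), or -0.61 without core replicate 1. TRADD, an adaptor of TNF receptors, had 43.1 and 49.5 CPM in the core and 26.9 and 31.4 CPM in the invasion zone, with an edgeR adjusted p of 0.135 and of 0.00113 with the block.

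**Figure D4:**
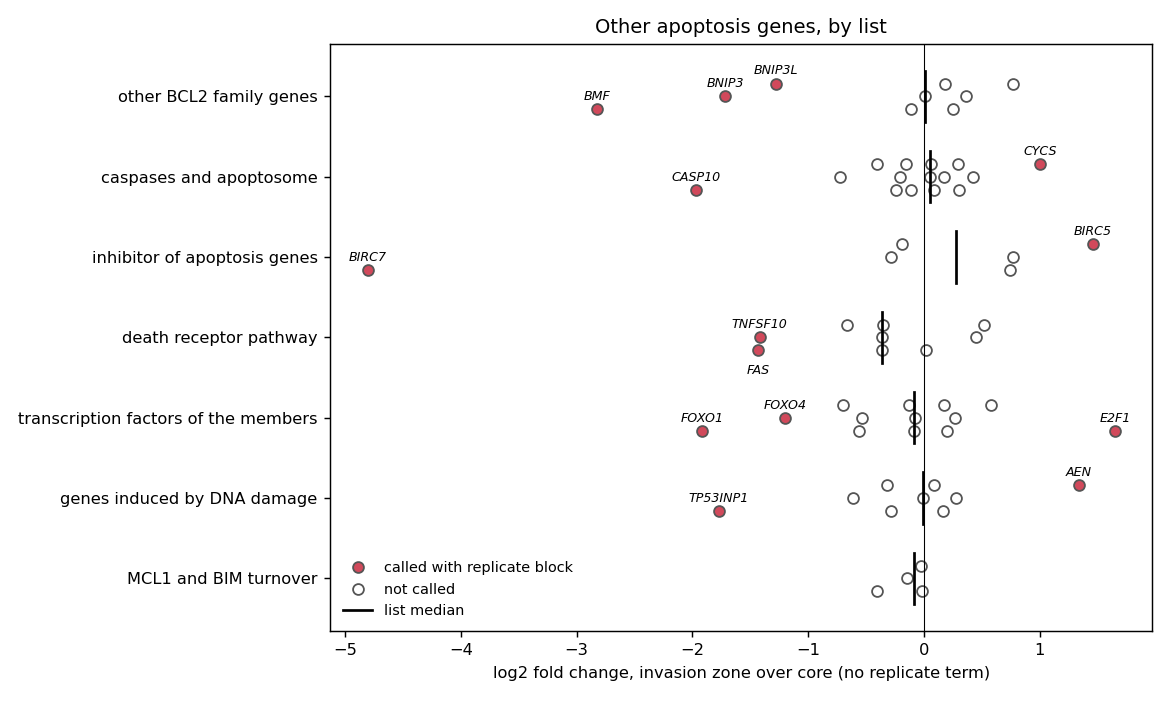
Fitted log2 fold changes, positive where the invasion zone was higher, from the edgeR fit without a replicate term, for each tested gene of 7 lists of other apoptosis genes. Filled points with names were called with the replicate block, open points were not, and the black line is the list median. The named genes lie outside -1 and 1, and the list medians lie between -0.36 and 0.27.

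Among the transcription factors known to act on members of the family, 1 of 13 tested was called higher and 2 lower with the block (3.41% and 7.06% of all genes), with a median of -0.089. FOXO1, a FoxO factor that can induce BCL2L11, had 8.73 and 5.96 CPM in the core and 2.48 and 1.26 CPM in the invasion zone, with a log2 fold change of -1.92 (standard error 0.42, edgeR adjusted p = 0.13, and 0.000568 with the block). FOXO4 had 4.91 and 3.05 CPM in the core and 2.27 and 1.09 CPM in the invasion zone (log2 fold change -1.20, edgeR adjusted p = 0.207, and 0.0111 with the block), or -0.80 when core replicate 1 was left out and -1.88 when invasion zone replicate 1 was left out. FOXO3, the most abundant listed FoxO gene, had 50.7 and 38.8 CPM in the core against 34.8 and 26.9 CPM in the invasion zone. Its log2 fold change of -0.53 was under 2-fold (edgeR adjusted p = 0.209, and 0.00344 with the block). E2F1, which the study names from these libraries, had 23.8 and 47.7 CPM in the core and 88.9 and 135 CPM in the invasion zone, with a log2 fold change of 1.65 (standard error 0.39, edgeR adjusted p = 0.133, and 5.6e-05 with the block).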

How the data were processed

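Bulk RNAseq was analysed from 2 core and 2 invasion zone libraries. According to the study's methods and processing notes, the authors filtered out ribosomal RNA with Bowtie, aligned the rest to hg38 with STAR and counted unique alignments per gene with HTSeq-count. The deposited values are raw counts without normalization. Not given in the sources used here are tool versions, annotation release and strand setting. Of 56306 rows, 2 repeated rows without counts were left out, and no column of values was unused.

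Counts were analysed in R 4.3.3 with edgeR 4.0.16 (filterByExpr with at least 10 counts at the median library size and 15 in total, TMM factors, quasi-likelihood test, Benjamini-Hochberg adjustment over 15529 genes). Genes with an adjusted p under 0.05 and at least a 2-fold change in either direction were called. The standard error is the log2 fold change divided by the square root of the F statistic. The main test had no replicate term, after the pair-wise test of the study, whose methods name no covariate. A second fit, blocked on the replicate number, stands beside it where calls differ. The numbers were read as pairs because the methods remove the invasion zone that corresponds to each core, although no source states that a number marks a shared spheroid. Same-numbered libraries deviated together, with a correlation of 0.58 across genes over 2 pairs, where genes are not independent replicates. DESeq2 1.42.0 and limma 3.58.1 were run as alternatives, and the tests were checked on simulated data. Fold intervals within a replicate are exact binomial and cover counting error only.

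Gene models came from GENCODE release 44 on GRCh38, the build of the counts, and promoters from RefSeq on GRCh38.p14. The members and lists were chosen with earlier results of these data known. Besides the 10 members, the text names from each list every gene called and up to 3 with the largest change whose zones do not overlap, and the 5 genes nearest to the member with the largest change. CDKN1A, MDM2, BID, BAD, BCL2L2, BOK, BCL2L12, BCL2L13 and FOXO3 were named outside this rule, after their values were seen. So were the markers AXL, CSPG4, SOX10, TYR, PDGFRA, LUM, DCN, PECAM1 and KDR, the genes that share exons and the motifs searched. Some listed genes are not reported here. Plots were made in Python 3.11.15 with matplotlib 3.10.9.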

Additional observations from a re-analysis of the deposited data

How the results depend on the processing

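With 0 calls in either direction in the test without a replicate term, the counts of higher and lower genes stayed at 0 and 0 for all genes, for the 10 members and for the 74 list genes under upper-quartile or RLE scaling, a minimum of 10 counts per library, limma voom, no fold change minimum and thinning to the smallest library. With the replicate block, which pairs same-numbered libraries, they were 530 and 1097 for all genes, 1 and 2 for the members and 4 and 10 for the list genes, and with the replicate block and no fold change minimum 3010 and 3009, 5 and 2, and 14 and 22. Limma voom with the replicate block, chosen after seeing the data, gave 575 and 1088, 1 and 2, and 4 and 10. DESeq2 gave 353 and 534, 1 and 2, and 4 and 5. An unadjusted p gave 454 and 909, 1 and 2, and 4 and 6. With at least 1 count in total, over 32869 genes, they were 427 and 846, 1 and 2, and 4 and 7, where the cause was not tested.

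Leaving out single libraries, the calls ranged from 13 to 632 higher and 125 to 1137 lower genes, from 0 to 0 higher and 1 to 2 lower members, and from 0 to 7 higher and 3 to 7 lower list genes, where the lone library of a zone is assumed to vary like the other zone. The lowest counts came without core replicate 1 (13 and 125). BCL2L11 was called lower in each of these 4 fits and BBC3 in the fits that left out core replicate 2 or invasion zone replicate 1. Of 130 log2 fold changes of members under alternatives, 1 reversed, that of BIK without core replicate 2 (0.52, range over the libraries left out -1.03 to 0.52), and none of 254 for the other named genes did. Depth limits BIK, BCL2A1 and BCL2, which had 13 to 206 counts per library.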

Other observations

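Of 9 tested genes induced by DNA damage, with a median log2 fold change of -0.012, edgeR called 0 without the replicate block and 1 higher and 1 lower with it, where 3.41% of all genes were called higher and 7.06% lower. AEN, an apoptosis-linked nuclease, had 25.0 and 46.6 CPM in the core and 66.9 and 113 CPM in the invasion zone (log2 fold change 1.34, standard error 0.39, edgeR adjusted p = 0.151, and 5.9e-05 with the block). TP53INP1 had 82.9 and 40.7 CPM in the core and 29.2 and 6.05 CPM in the invasion zone (log2 fold change -1.77, standard error 0.73, edgeR adjusted p = 0.216, and 0.000314 with the block), or -3.36 without invasion zone replicate 1 and -1.09 without invasion zone replicate 2, and DESeq2 did not call it (adjusted p = 0.259). ZMAT3 had a log2 fold change of -0.62, with an edgeR adjusted p of 0.192 and of 0.00109 with the block. CDKN1A, the p21 gene, had 29.5 and 33.3 CPM in the core and 25.7 and 36.8 CPM in the invasion zone, and MDM2 33.8 and 43.2 CPM against 40.2 and 46.1 CPM. The zones overlapped for both of these genes.

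Genes of enzymes that control the turnover of the MCL1 and BIM proteins had a median log2 fold change of -0.085 over 4 tested, with 0 called by edgeR with or without the block and 0 at an unadjusted p with a 2-fold change, in DESeq2 or in limma voom. USP9X, a deubiquitinase of MCL1, had 206 and 246 CPM in the core and 176 and 166 CPM in the invasion zone, with a log2 fold change of -0.40 (standard error 0.15, edgeR adjusted p = 0.192, and 0.0101 with the block). FBXW7, a ubiquitin ligase subunit for MCL1, had 27.3 and 28.4 CPM in the core and 23.7 and 26.7 CPM in the invasion zone, with an edgeR adjusted p of 0.616.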
